A study of Mus musculus with 12 samples.

Results

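The phagocyte effector genes followed here across cerebella of BALB/c Npc1 mice numbered 10: Mpeg1, Lyz1, Lyz2, Cd68, Lgals3, Lgals3bp, Gpnmb, Cst7, Spp1 and Itgax. The platform annotation assigned 11 probe sets to 9 of these 10 genes, among 12393 genes with a probe set, and Spp1 was not analysed here. Groups of 3 animals each, 4 in all, were compared on 1 Affymetrix array per animal: Npc1-/- at postnatal day 49 (P49), Npc1+/+ at P49, Npc1-/- at P21 and Npc1+/+ at P21. The labels name no treatment and give all animals the same strain, light cycle and chow, 11 as female and 1 (Npc1-/- P49 replicate 1) as male. Whole cerebellum was profiled, each array held an individual animal, and the labels say of the Npc1 allele only that genotypes came from PCR. The genes were selected on results of these arrays, among them the genotype difference at P49, so that difference is described here with no test. The P21 values of Mpeg1, Cd68 and Lgals3 were also known and are likewise described with no test, so that only the genotype differences of Lyz1, Lyz2 and Lgals3bp at P21 are tested.

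Npc1 encodes a membrane protein of late endosomes and lysosomes that exports cholesterol, and mice without it lose Purkinje cells and gain reactive microglia. Microglia are the resident phagocytes of the brain. A phagocyte takes up debris into phagosomes, fuses these with lysosomes and digests the cargo, and the genes described here encode parts of that machinery: a pore-forming protein, the lysozymes, membrane proteins of the phagosome and lysosome, lectins, a protease inhibitor and a surface integrin. Several of them are known in the mouse brain as markers of microglia that have left the resting state.

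The 2 lysozyme genes are neighbours on chromosome 10 and near copies of each other, which bears on how their probe sets can be read. Their upstream sequences (RefSeq, GRCm38.p6, minus strand) are shown for the 120 bases that end at the transcription start, chr10:117292869-117292988 for Lyz1 and chr10:117282273-117282392 for Lyz2, with capitals at the 9 positions where the pair differ.
Lyz1: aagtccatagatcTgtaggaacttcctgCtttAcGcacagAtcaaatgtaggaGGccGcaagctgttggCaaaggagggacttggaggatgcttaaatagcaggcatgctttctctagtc
Lyz2: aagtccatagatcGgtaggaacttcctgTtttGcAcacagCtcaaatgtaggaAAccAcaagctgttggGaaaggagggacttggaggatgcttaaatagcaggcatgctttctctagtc

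The last 50 bases before the start were identical in both genes, and 92.0% of the last 100 matched without gaps. Over 250 bases the match was 60.8%.

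Since all 9 genes were higher in Npc1-/- at P49, the 250 bases upstream of each of the 9 genes were searched on both strands for 3 short motifs. CACGTG, the E-box read by the MITF and TFE family, was found in 0 of 9 windows and in 6.05% of all 27025 promoter windows of the same length. GAGGAAG, an ETS-type core of the kind read by PU.1, was found in 0 of 9 and in 10.4% of all windows. TGANTCA, the AP-1 element, was found in 2 of 9, those of Cd68 and Itgax, and in 6.87% of all windows. The Cd68 window held it at 149 and 24 bases before the start and the Itgax window at 56 bases before it. Both windows are shown because they are the ones with a match, with the AP-1 letters in capitals: Cd68 at chr11:69666171-69666420 on the minus strand and Itgax at chr7:128129300-128129549 on the plus strand (RefSeq, GRCm38.p6).
Cd68: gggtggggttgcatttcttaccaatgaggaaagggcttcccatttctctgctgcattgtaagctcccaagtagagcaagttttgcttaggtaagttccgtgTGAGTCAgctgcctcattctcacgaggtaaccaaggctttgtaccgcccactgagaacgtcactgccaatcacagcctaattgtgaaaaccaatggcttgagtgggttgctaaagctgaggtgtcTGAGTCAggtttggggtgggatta
Itgax: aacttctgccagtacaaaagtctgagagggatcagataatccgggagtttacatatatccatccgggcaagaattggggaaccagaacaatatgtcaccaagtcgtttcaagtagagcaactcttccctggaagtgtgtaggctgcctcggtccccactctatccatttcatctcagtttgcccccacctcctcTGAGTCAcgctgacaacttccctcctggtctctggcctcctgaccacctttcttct

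Intensities below are quantile normalised values per array, and differences are Npc1-/- minus Npc1+/+ (or P49 minus P21) in log2(intensity + 16), with limma standard errors and n = 3 per group. A gene was tested where its mean over the 12 arrays reached an intensity of 959, the 40th percentile of the probe sets, and called where its Benjamini-Hochberg adjusted p over the 7835 genes tested by limma was under 0.05. Of the 9 genes 6 were above this filter, Mpeg1, Cd68, Lgals3 and Lgals3bp with wild-type means under 959 and thus through the Npc1-/- arrays, while Gpnmb, Cst7 and Itgax were below the filter and have errors from the fit without a filter. In both wild-type groups the means of 7 of the 9 genes lay under 959, all but those of Lyz2 and of the brightest Lyz1 probe set. With no detection calls used, such levels may not exceed background, and the size of those differences is uncertain. In whole tissue, more phagocytes and more RNA per phagocyte cannot be told apart.

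Some facts of the whole series touch every result. Npc1 itself lay between 8.25 and 10.53 (log2) on the 6 Npc1-/- arrays and between 11.06 and 11.75 on the 6 Npc1+/+ arrays, with differences of -1.43 ± 0.37 at P49 and -1.95 ± 0.37 at P21 that limma did not call (adjusted p = 0.0591 and 0.101). Xist, the RNA of the inactive X chromosome, stood above 15 (log2) on 9 arrays, including the one labelled male, and below 14 on 3 P21 arrays labelled female: Npc1-/- replicates 2 and 3 and Npc1+/+ replicate 2. The 3 were not alike. Npc1+/+ replicate 2 had Xist at 9.28 and the Y-linked gene Eif2s3y at 12.72. Npc1-/- replicates 2 and 3 had Xist at 13.01 and 13.36 and Eif2s3y at 9.25 and 12.67. On the other 9 arrays Eif2s3y reached at most 8.91. Whether any array held RNA of more than 1 animal was not tested. Results that use P21 arrays are therefore also given without the 3 arrays with Xist below 14. This leaves 1 Npc1-/- array at P21, replicate 1, whose spread is borrowed from the other groups. All 9 cerebellar neuron genes with a probe set were above 959 in every group mean. Of these, limma called 3 lower in Npc1-/- at P49, beside 1.14% of all tested genes. They were Calb1 (-0.92 ± 0.15, adjusted p = 0.00254), Car8 (-0.94 ± 0.16, 0.00437) and Pcp2 (-0.63 ± 0.11, 0.00508), all expressed by Purkinje cells. Limma did not call Gabra6, Neurod1, Cbln1, Cbln3, Zic1 or Zic2, whose differences ran from -0.13 (Gabra6) to 0.10 (Cbln1).

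At P49 all 9 genes were higher in Npc1-/- cerebellum than in wild type, with differences from 2.45 to 5.65, and for each gene the 3 Npc1-/- animals lay above the 3 Npc1+/+ animals. Over all 12393 genes 10.2% had groups that did not overlap in this direction, and the median difference was -0.02, against a median of 4.26 over the 9 genes. These values belong to the contrast known when the genes were chosen, so nothing is read from the counts.

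Mpeg1 encodes perforin-2, a pore-forming protein of macrophages that acts on engulfed microbes. Its intensity was 12679, 14662 and 13976 in Npc1-/- animals at P49, against 421, 220 and 185 in Npc1+/+ animals. It thus had a difference of 5.65 ± 0.36, which ranked 1 of 7835 tested genes, and its Npc1-/- values had an SD of 0.11 on the log2 scale. Its wild-type intensities may not exceed background, so no fold is given. The P49 folds given below for Cd68, Lgals3 and Lgals3bp also rest on wild-type means under 959 and are uncertain in size.

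The lysozymes cut the cell wall of bacteria. In the mouse Lyz2 is the form of macrophages and other myeloid cells and Lyz1 that of Paneth cells of the gut. Lyz2 had 27472, 37878 and 35311 in Npc1-/- animals at P49, against 1481, 1557 and 1456 in Npc1+/+ animals, a difference of 4.46 ± 0.36 (22.0-fold, rank 3). The brightest Lyz1 probe set, 1436996_x_at, had 54210, 73374 and 70639 in Npc1-/- animals and 1811, 1950 and 2243 in Npc1+/+ animals, a difference of 5.03 ± 0.48 (rank 2). Lyz2 and this Lyz1 probe set were above the filter intensity in every group mean, so their differences do not rest on dim wild-type values. The other Lyz1 probe sets had means under the filter intensity in both wild-type groups.

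The 3 Lyz1 probe sets did not behave alike. Probe set 1439426_x_at had 29136, 27588 and 25445 in Npc1-/- animals at P49, against 1147, 688 and 619 in Npc1+/+ animals, a difference of 5.09 ± 0.29. Probe set 1450822_at had 305, 112 and 130 in Npc1-/- animals, against 203, 444 and 301 in Npc1+/+ animals, a difference of -0.80 ± 0.83 that is within its error. The suffix x marks, in Affymetrix naming, probe sets with probes that can match other transcripts, and both bright Lyz1 probe sets carry it. Whether they read Lyz1, Lyz2 or both cannot be told apart with these data, so the Lyz1 values are uncertain as values of that gene.

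**Figure D1:**
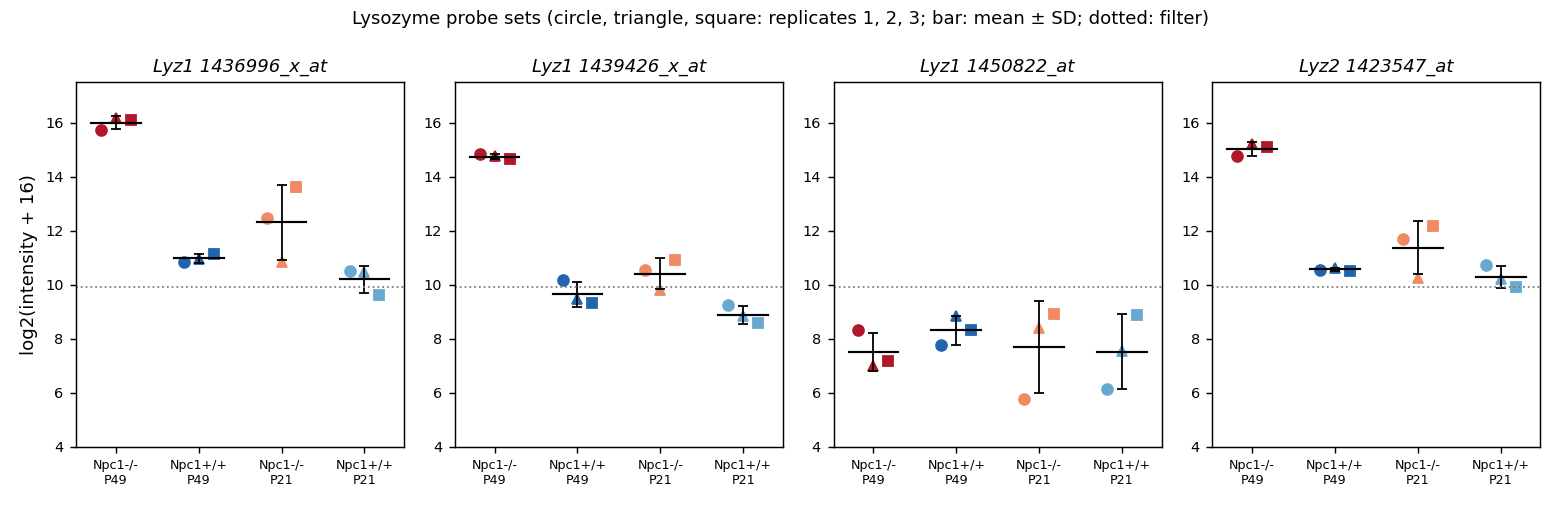
Log2(intensity + 16) of the 3 Lyz1 probe sets and the Lyz2 probe set in each of the 12 animals, with mean ± SD per group (n = 3) and the filter as a dotted line. The x-suffixed Lyz1 probe sets and Lyz2 stand far above wild type in Npc1-/- at P49, whereas Lyz1 1450822_at has a difference of -0.80 ± 0.83.

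Cd68 and Gpnmb encode heavily glycosylated membrane proteins, Cd68 (macrosialin) of the phagocyte's late endosomes and lysosomes and Gpnmb of lysosomes, phagosomes and, in pigment cells, melanosomes. Cd68 had 8210, 10606 and 11500 in Npc1-/- animals at P49, against 927, 656 and 621 in Npc1+/+ animals, a difference of 3.76 ± 0.36 (13.6-fold, rank 5). Gpnmb had 8731, 14068 and 12396 in Npc1-/- animals, against 462, 46.5 and 468 in Npc1+/+ animals, a difference of 5.56 ± 0.71. That was the difference ranked 2 of all 12393 genes, but replicate 2 of the wild type was far below the other two and the wild-type SD was 1.70. Of the 5 pigment cell genes with a probe set none passed the filter, and their summed intensity was 1666 to 2200 in Npc1-/- and 900 to 1957 in Npc1+/+ animals at P49, ranges that overlap. Within that list Pmel (2.26) and Tyrp1 (2.07), both melanosome genes named after their values were seen, had groups that did not overlap with Npc1-/- higher, beside 10.2% of all 12393 genes. Tyr (0.19), Slc45a2 (0.09) and Dct (-0.44) had groups that overlapped. None of these was tested. The part of such cells in the Gpnmb values was not tested.

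Lgals3 encodes galectin-3, a lectin that binds beta-galactosides at the cell surface and on damaged lysosomes. Lgals3bp encodes a secreted glycoprotein that galectin-3 binds. Lgals3 had 4573, 8477 and 8199 in Npc1-/- animals at P49, against 248, 316 and 761 in Npc1+/+ animals, a difference of 4.07 ± 0.35 (16.8-fold, rank 4). The ligand Lgals3bp had 4803, 4910 and 6057 in Npc1-/- animals, against 784, 1166 and 915 in Npc1+/+ animals. At 2.45 ± 0.36 (5.47-fold, rank 17) its difference was the smallest of the 9.

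Cst7 encodes cystatin F, an inhibitor of lysosomal cysteine proteases, and Itgax encodes CD11c, an integrin subunit of dendritic cells and of a reactive subset of microglia. Cst7 had 1749, 1618 and 1340 in Npc1-/- animals at P49, against 113, 55.3 and 44.8 in Npc1+/+ animals, a difference of 4.26 ± 0.52. Itgax had 2363, 2840 and 3415 in Npc1-/- animals, against 233, 331 and 381 in Npc1+/+ animals, a difference of 3.14 ± 0.47. Although both genes stayed under the filter for their mean over the 12 arrays, both were above 959 in all 3 Npc1-/- animals at P49.

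**Figure D2:**
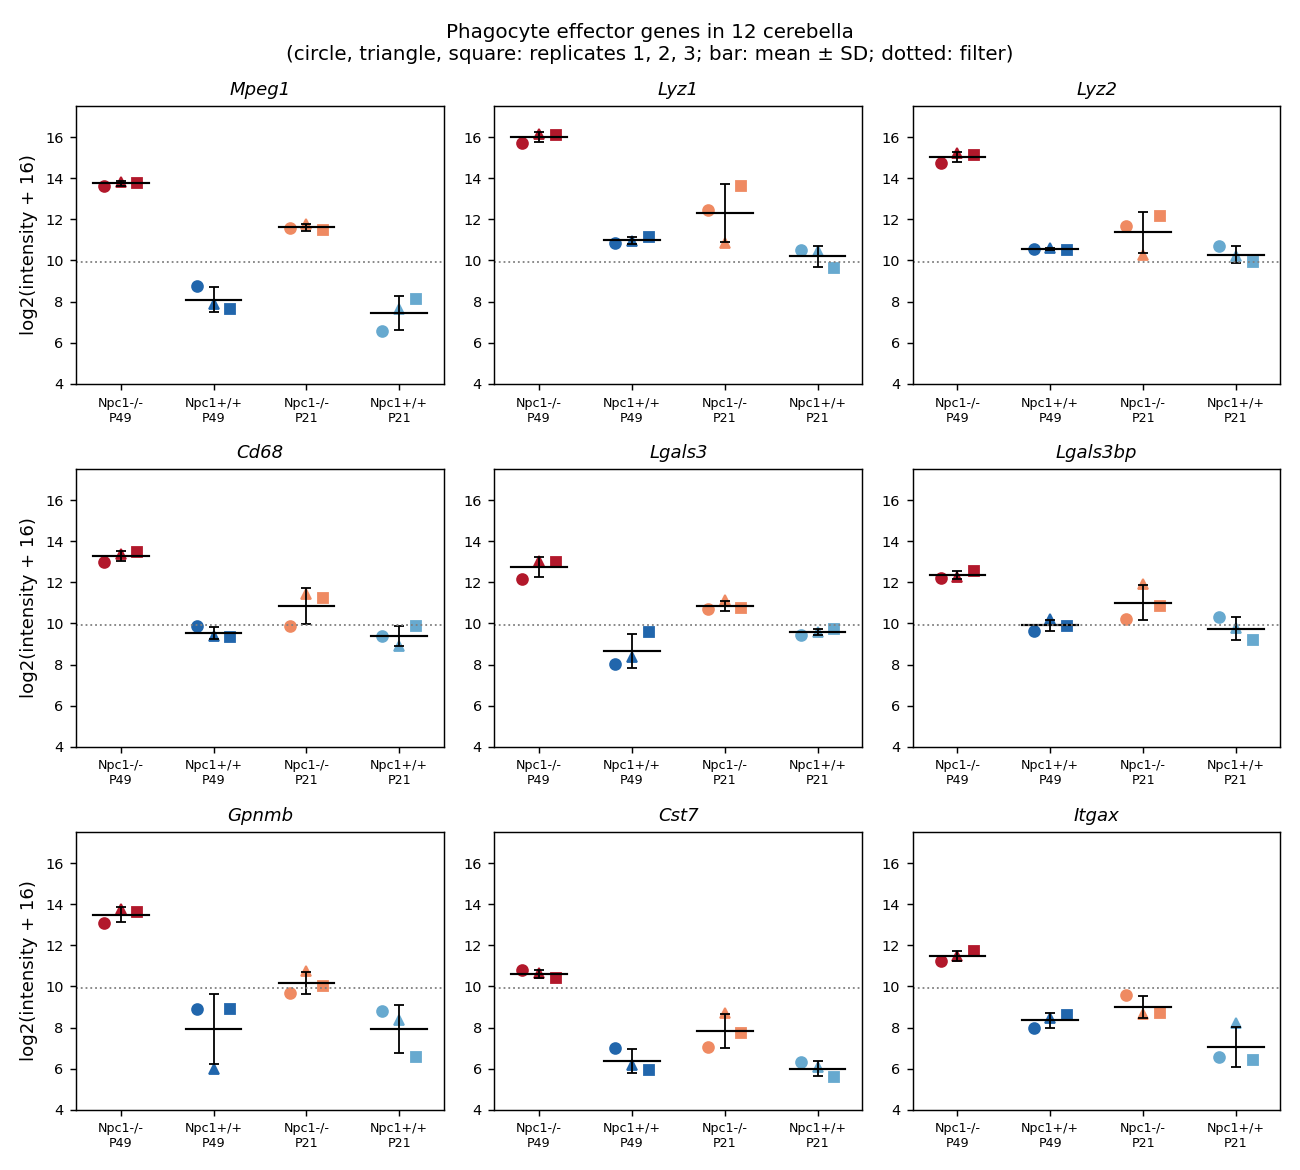
Log2(intensity + 16) of the brightest probe set of each of the 9 genes in every animal, by genotype and age, with mean ± SD (n = 3) and the filter intensity of 959 as a dotted line. In each panel the 3 Npc1-/- animals at P49 lie above the 9 other animals.

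The SD within the Npc1-/- group at P49 had a median of 0.24 over the 9 genes, from 0.11 for Mpeg1 to 0.50 for Lgals3. Over all genes the median SD of that group was 0.19, and over genes in the same range of levels it was 0.12. Replicate 1, the animal labelled male, was the lowest of the 3 for 8 of the 9 genes, and the highest for Cst7. Its median deviation from the group mean was -0.27 on the log2 scale, small beside the genotype differences.

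At P21 all 9 genes had positive differences, from 1.09 to 4.15 with a median of 1.84, against a median of 0.00 over all genes. They ran, without the 3 arrays, from 0.24 (Cd68) to 4.26 (Mpeg1) with a median of 1.375. For 6 of the 9 the groups did not overlap (Mpeg1, Lyz1, Lgals3, Gpnmb, Cst7 and Itgax), beside 5.95% of all 12393 genes with Npc1-/- higher. In the fit over all genes limma called 4 of 7835 higher (0.0511%) and 1 lower (0.0128%). Lyz1, Lyz2 and Lgals3bp, the 3 genes tested here, were not among them.

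Mpeg1 had 3077, 3473 and 2797 in Npc1-/- animals at P21, against 78.3, 187 and 269 in Npc1+/+ animals. Its difference was 4.15 ± 0.36, and all 3 Npc1-/- animals were at least 4.00 above the wild-type mean on the log2 scale. The wild-type intensities may not exceed background, so no fold is given, and without the 3 arrays the difference was 4.26.

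The share of the P49 difference present at P21 was 73.5% for Mpeg1 on the log2 scale, and 24.5% (Lyz2) to 61.0% (Itgax) for the other 8 genes. Its order turned on the arrays: without the 3 arrays it was 75.3% for Mpeg1, 97.8% for Itgax, 30.9% for Lyz2 and 6.4%, the lowest, for Cd68.

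The lysozymes split the Npc1-/- animals at P21. Lyz2 had 3276, 1211 and 4605 in Npc1-/- animals, against 1669, 1172 and 947 in Npc1+/+ animals, so replicate 2 lay inside the wild-type range while the other 2 stood above it. The difference was 1.09 ± 0.36 and did not pass (adjusted p = 0.392 by limma). Lyz1 (1436996_x_at) showed the same order of animals with 5658, 1812 and 12594 in Npc1-/-, against 1431, 1393 and 772 in Npc1+/+, and a difference of 2.12 ± 0.48 (adjusted p = 0.252).

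The other two Lyz1 probe sets were dimmer at P21. Probe set 1439426_x_at had 1470, 866 and 1890 in Npc1-/- animals, against 592, 439 and 367 in Npc1+/+ animals, a difference of 1.52 ± 0.29 with replicate 2 again the lowest. Probe set 1450822_at had 38.6, 320.2 and 470 in Npc1-/- animals, against 54.6, 171 and 460 in Npc1+/+ animals, and its difference of 0.17 ± 0.83 was within its error.

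Without Npc1-/- P21 replicate 2 both lysozymes passed by limma, Lyz1 at 2.85 (adjusted p = 0.000584) and Lyz2 at 1.65 (0.00436). Leaving out the 3 arrays gave Lyz1 2.42 (0.0078) and Lyz2 1.38 (0.149). Whether the lysozymes were called at P21 thus turned on which animals were included.

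The same replicate 2 was the highest Npc1-/- animal at P21 for 6 genes: Mpeg1, Cd68, Lgals3, Lgals3bp, Gpnmb and Cst7. Cd68 had 916, 2757 and 2407 in Npc1-/- animals, against 650, 459 and 923 in Npc1+/+ animals, with replicate 1 inside the wild-type range. Its difference was 1.47 ± 0.36, which became 1.94 without Npc1-/- replicate 1 and 0.24 without the 3 arrays. Lgals3bp had 1188, 3909 and 1848 in Npc1-/- animals, against 1242, 858 and 569 in Npc1+/+ animals, and 1.26 ± 0.36 (adjusted p = 0.342 by limma), or 0.50 (0.834) without the 3 arrays. For both genes the animal that remained then, Npc1-/- replicate 1, was the lowest of the group.

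Lgals3 was more even: 1649, 2250 and 1686 in Npc1-/- animals at P21, against 680, 747 and 841 in Npc1+/+ animals. Its difference was 1.27 ± 0.35, and 1.12 without the 3 arrays. The groups did not overlap, and every Npc1-/- animal was more than 1.10 above the wild-type mean on the log2 scale.

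The 3 genes below the filter were not tested at P21. Gpnmb had 816, 1696 and 1030 in Npc1-/- animals, against 429, 319 and 80.1 in Npc1+/+ animals, a difference of 2.23 ± 0.71. Cst7 had 117, 405 and 195 in Npc1-/- animals, against 64, 51.3 and 32.3 in Npc1+/+ animals, and 1.84 ± 0.52. Itgax had 757, 382 and 408 in Npc1-/- animals, against 80.6, 277 and 70.1 in Npc1+/+ animals, and 1.91 ± 0.47, with replicate 1 the highest of its group. Without the 3 arrays the differences were 2.02 for Gpnmb, 1.10 for Cst7 and 3.09 for Itgax.

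**Figure D3:**
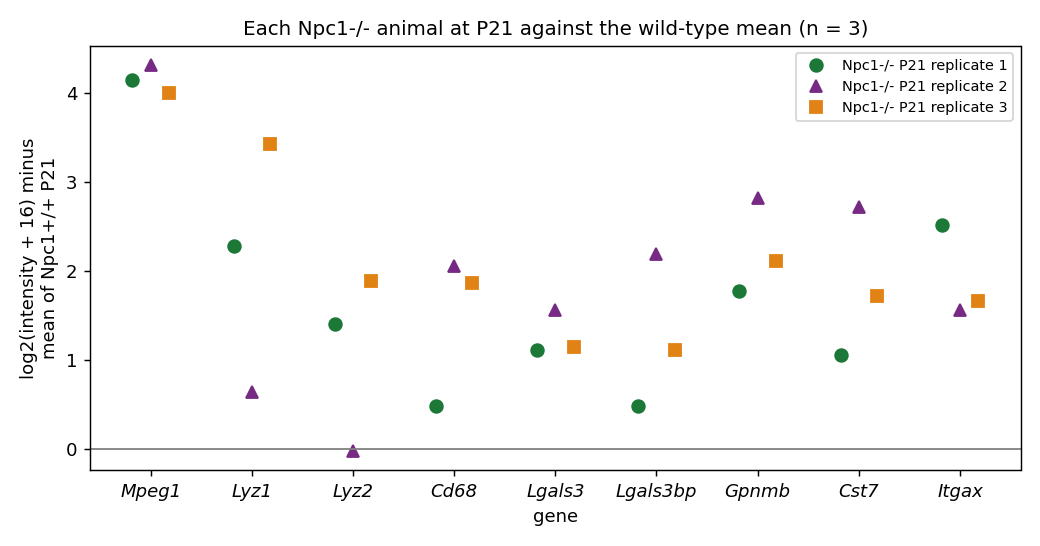
Each of the 3 Npc1-/- animals at P21 as log2(intensity + 16) minus the mean of the 3 Npc1+/+ animals at P21, for the 9 genes. All 3 stand at 4.00 or more for Mpeg1, replicate 2 is lowest for both lysozymes (0.64 and -0.02) and highest for Cd68, Lgals3bp, Gpnmb and Cst7.

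The spread between Npc1-/- animals at P21 was wide, with a median SD of 0.84 over the 9 genes, from 0.16 for Mpeg1 to 1.40 for Lyz1. Over all genes the median SD of that group was 0.32, against 0.20 in Npc1+/+ at P21. The summed level of red blood cell genes also differed between these animals, mostly through 1 gene, Alas2. The summed intensity of the 3 such genes with a probe set was 16612, 4138 and 3282 in Npc1-/- and 1566, 1653 and 3387 in Npc1+/+ at P21. Alas2, the erythroid enzyme of haem synthesis and one of these 3, had 14677, 3588 and 2339 in Npc1-/- and 1186, 812 and 2761 in Npc1+/+, and did not pass (1.83 ± 0.58, adjusted p = 0.367 by limma). Below the filter and not tested, Slc4a1 had a P21 difference of 1.06 and Hba-a1 went the other way at -0.53. The part of red blood cells in the P21 values was not tested. Replicate 1, which had the most Alas2, was the lowest of the 3 for 5 of the 9 genes. At P49 the sum of the red blood cell genes was 888 to 1306 in Npc1-/- and 990 to 1435 in Npc1+/+ animals.

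**Figure D4:**
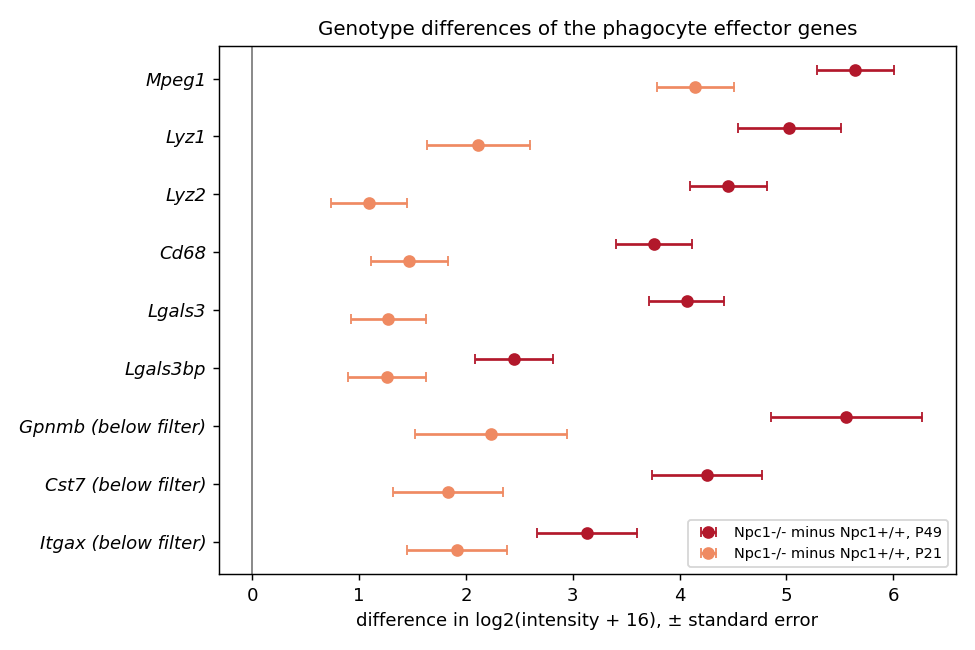
Npc1-/- minus Npc1+/+ differences in log2(intensity + 16) at P49 and at P21 for the 9 genes, with standard errors (n = 3 per group). Every difference is positive, the P49 differences run from 2.45 to 5.65 and the P21 differences from 1.09 to 4.15.

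Age was set against genotype next. Within Npc1-/- all 9 were higher at P49 than at P21, with groups that did not overlap (9.55% of all genes were higher in this way) and differences from 1.34 (Lgals3bp) to 3.69 (Lyz1), or 2.54-fold to 12.9-fold. Lyz2 was close behind Lyz1 at 3.65 ± 0.36, Gpnmb had 3.33 ± 0.71, and Mpeg1 had 2.14 ± 0.36. Without the 3 arrays these differences ran from 1.90 (Itgax) to 3.80 (Gpnmb), with all 3 animals at P49 above the one left at P21 for each gene. Within Npc1+/+ the differences between P49 and P21 had a median of 0.28, and for 8 of the 9 genes the age groups overlapped. Lyz1 (1436996_x_at) was the exception at 0.78 ± 0.48, beside 8.52% of all genes higher and 9.26% lower at P49 with no overlap, and Itgax had the largest difference at 1.27 ± 0.47. Lgals3 had the one negative value, -0.91 ± 0.35, with 248, 316 and 761 at P49 and 680, 747 and 841 at P21. With the 3 arrays left out, of which 1 was Npc1+/+, the median was 0.25, Lgals3 had -0.93, Cd68 -0.10 and Itgax 1.83. These contrasts contain the P49 arrays known when the genes were chosen and carry no test.

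The genotype difference was larger at P49 than at P21 for all 9 genes, by 1.19 (Lgals3bp) to 3.37 (Lyz2) on the log2 scale, again as a description. For Lyz2 the change was 3.37 ± 0.51 and for Gpnmb 3.33 ± 1.00, whereas Mpeg1 had 1.50 ± 0.51 and Itgax 1.22 ± 0.66. Without the 3 arrays the change ran from 0.07 (Itgax) to 3.56 (Gpnmb), with 3.53 for Cd68.

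Other genes of activated phagocytes were mostly higher in Npc1-/- at P49. A list of such partners held 40 genes, of which 37 had a probe set and 36 of these a positive difference. The exception was the scavenger receptor gene Cd36 (-0.79), and the groups also overlapped for Msr1 (1.02) and Ncf1 (1.88), all 3 below the filter. In the 21 above the filter limma called 19 higher and 0 lower, beside 1.52% and 1.14% of all tested genes. Over all 37 the median difference was 1.82, against -0.02 for all genes. The list was chosen with earlier results of these data known. The Npc1-/- arrays at P49 also helped decide which of these genes passed the filter, which can raise the share called. Clec7a had means under 959 in every group but Npc1-/- at P49, and Fcgr3 in both Npc1+/+ groups. Both passed the filter through Npc1-/- arrays, so nothing is read from their p-values below. The 8 with the smallest p were the adaptor gene Tyrobp (3.55 ± 0.17, adjusted p = 5.82e-08), the protease genes Ctsd (2.05 ± 0.12, 1.87e-07), Ctsz (1.82 ± 0.14, 3.41e-06) and Ctss (2.19 ± 0.18, 5.8e-06), the glucan receptor Clec7a (3.61 ± 0.22, 1.95e-07), the progranulin gene Grn (1.66 ± 0.13, 3.46e-06), the NADPH oxidase subunit Cyba (2.45 ± 0.21, 8.58e-06) and the Fc receptor Fcgr3 (2.39 ± 0.21, 1.27e-05). Those not called, named after their values were seen, were the protease gene Ctsl (0.40, adjusted p = 0.212) and the lipid droplet gene Plin2 (0.54, 0.141). At P21 limma called 0 of the 21, beside 0.0511% of all tested genes called higher and 0.0128% lower, 12 of the 21 had an unadjusted p under 0.05 (10.1% of all tested genes), and the median over the 37 was 0.48. Without the 3 arrays 0 were called, 8 had an unadjusted p under 0.05 (7.26% of all tested genes) and the median was 0.29. Without Npc1-/- P21 replicate 1 limma called 2 of these partners higher at P21, beside 14 of 7834 genes (0.179%).

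Of the homeostatic microglia genes, those of the resting state, 11 of 14 had a probe set, and 8 of the 11 had positive differences at P49 with a median of 1.35. Of the 6 tested, limma called 3 higher, beside 1.52% of all tested genes: the growth factor receptor Csf1r (1.35 ± 0.16, adjusted p = 0.000256), the fractalkine receptor Cx3cr1 (1.71 ± 0.31, 0.00606) and Olfml3 (1.61 ± 0.30, 0.00806). Olfml3 had means under 959 in Npc1+/+ at both ages and passed the filter through the Npc1-/- arrays, so nothing is read from its call. The list was chosen with earlier results of these data known. The tested genes P2ry12 (0.56 ± 0.17, 0.14), Tmem119 (-0.22 ± 0.22, 0.815) and Selplg (-0.34 ± 0.23, 0.71) did not pass. Below the filter, and named after their values were seen, Aif1 (2.31), Gpr34 (2.17) and Fcrls (2.02) had groups that did not overlap with Npc1-/- higher, beside 10.2% of all 12393 genes. Also below the filter, Slc2a5 (-0.88) and Sall1 (0.40) had groups that overlapped. In the fit without a filter limma called 6 of the 11, all higher, beside 1.14% of all 12393 genes called higher. At P21 limma called 0 of the 6, beside 0.0511% of all tested genes higher and 0.0128% lower, and 1 had an unadjusted p under 0.05 (10.1% of all tested genes). Both counts were 0 without the 3 arrays. The summed intensity of the 11 genes was 37094 to 46844 in Npc1-/- and 17455 to 18585 in Npc1+/+ at P49, and 25321 to 32808 in Npc1-/- and 17477 to 23192 in Npc1+/+ at P21. For the 9 effector genes the same sum was 124788 to 168435 in Npc1-/- and 6299 to 7074 in Npc1+/+ at P49, and 17455 to 27571 in Npc1-/- and 4502 to 6325 in Npc1+/+ at P21. The part of the microglial sum in the differences of the 9 genes was not tested.

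Markers of other phagocytes and of lymphocytes mostly stayed dim. Of 8 border macrophage genes, all with a probe set, 1 was tested, Stab1, which limma did not call (0.68, adjusted p = 0.31). Its means were above 959 in Npc1-/- at both ages and under 959 in Npc1+/+. The largest difference of the list in size was that of Lyve1 (-1.55), noted after the values were seen and not tested. Its groups did not overlap, with Npc1-/- lower, and the share of all genes lower in this way at P49 was not counted. Of the 8 genes 4 had positive differences. The sum of the 8 genes at P49 was 4580 to 4758 in Npc1-/- and 3333 to 5042 in Npc1+/+. None of the 14 monocyte and neutrophil genes with a probe set (of 16) passed the filter, all 14 had means under 959 in every group, and the sum at P49 was 3951 to 5490 in Npc1-/- and 3318 to 4506 in Npc1+/+. The largest differences in that list, noted after the values were seen and not tested, were those of the calprotectin genes S100a8 (3.01, with log2 means of 9.11 in Npc1-/- and 6.09 in Npc1+/+) and S100a9 (1.68, with 8.44 in Npc1-/- and 6.77 in Npc1+/+). The S100a8 groups did not overlap, beside 10.2% of all 12393 genes with Npc1-/- higher, and the S100a9 groups did. Of the 14 genes 8 had positive differences. Itgal (-0.59) had groups that did not overlap with Npc1-/- lower, and Elane (-0.66) had groups that overlapped. The 11 lymphocyte genes with a probe set (of 12) were likewise all under 959 in every group, with sums of 2104 to 2937 in Npc1-/- and 1692 to 2961 in Npc1+/+ at P49. In each of these 3 lists the ranges of the summed intensity overlapped between the genotypes.

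**Figure D5:**
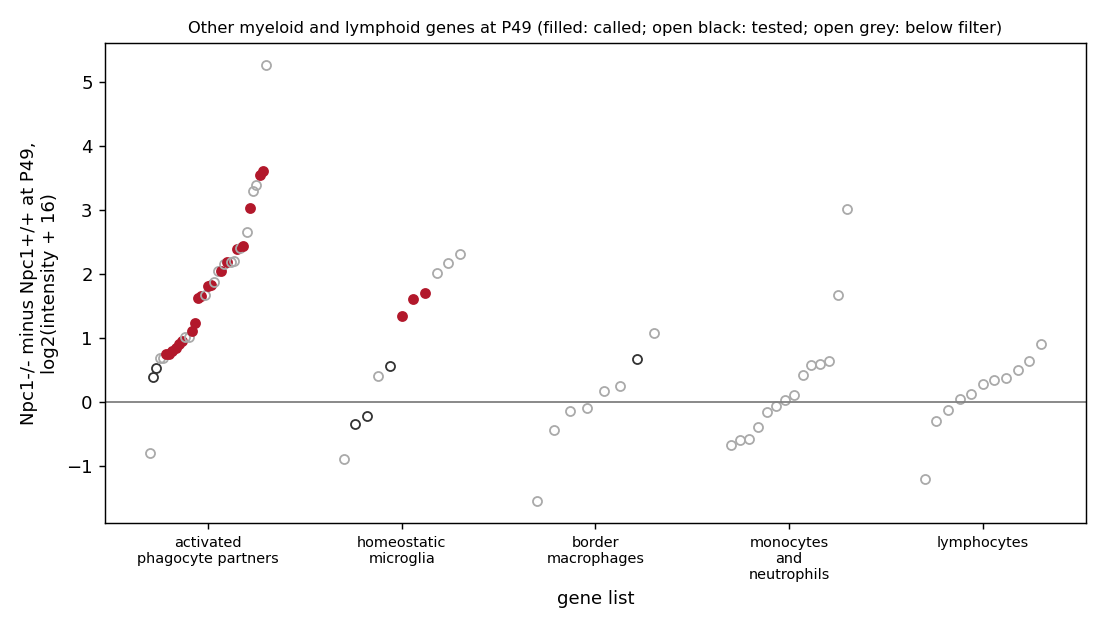
Npc1-/- minus Npc1+/+ differences at P49 in log2(intensity + 16) for every gene with a probe set in 5 lists, filled where limma called the gene, open black where tested and not called, open grey where below the filter. The activated phagocyte partners run mostly above 0 with 19 called, 3 homeostatic microglia genes are called, and none is in the border macrophage, monocyte and neutrophil, or lymphocyte lists.

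The tested genes most like the effector genes in profile were sought among the others above the filter. The measure was the root mean square difference over the 12 arrays between a gene's centred log2 values and the median centred profile of the 6 tested effector genes. The nearest were Clec7a (0.440), C1qc (0.441), C1qa (0.524), Tyrobp (0.579) and C1qb (0.584), while Cd68, itself part of that profile, had 0.425 and Mpeg1 1.079. C1qa, C1qb and C1qc encode the chains of complement C1q. Their P49 differences were 3.39, 3.06 and 3.52 and their P21 differences 1.08, 1.27 and 1.40. All 12 points fall in the same 4 groups, and the likeness is a description.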

How the data were processed

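Whole cerebellum RNA was biotin-labelled for Affymetrix arrays, 1 animal per array, per the labels' protocols. The authors deposited 1 linear intensity for each of 22690 probe sets (64 controls). How these were summarised and scaled is not given in the sources used here, and on each of the 12 arrays the 2% trimmed mean lay between 5001.9 and 5002.2. Array medians differed by 0.27 (log2), above a limit of 0.15, so log2(intensity + 16) was quantile normalised. Probe sets were named through the platform annotation, updated by Entrez identifier with RefSeq GRCm38.p6. There were 20380 with 1 symbol, 691 with several and 1555 with none. The brightest probe set stood for a gene, and genes at or above the 40th percentile were tested (7835 of 12393).

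Contrasts of the 4 groups were fitted in limma 3.58.1 (R 4.3.3) with a mean-variance trend and Benjamini-Hochberg adjustment. The fit was tested on simulated data with known changes. Differences are in log2(intensity + 16), where the added 16 understates changes of dim genes, and the number of arrays limits the precision. The members and lists were chosen with earlier results of these data known. The named genes are every member, Npc1, up to 8 called genes per list by smallest p at P49 and the 5 nearest in profile. Alternatives covered the scaling, pseudocount, filter, probe set rule, trend, replicate number as a block and single arrays left out. One protocol text gives P21 for all animals; the time point labels were used.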

Additional observations from a re-analysis of the deposited data

How the results depend on the processing

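The counts of members called are kept as a record of the fit only, and nothing is read from them. The genes were chosen with the P49 difference known, and with the P21 values of Mpeg1, Cd68 and Lgals3 known. Percentages beside a count are the share of all genes tested in that setting that were called higher. The median P49 difference was 4.15 to 4.45 when single arrays were left out, and Lyz1 at P49 was 3.10 with the mean of its probe sets. Limma called 1 member at P21, Mpeg1 (0.0511%). With the filter at the 60th percentile it called 0 of 2 tested (0.054%). With only the 6 arrays of the contrast it called 0 of 5 tested, beside 0 of all 7841 genes. Mpeg1 was not tested in either setting. Without single arrays 0 to 3 members were called (0.0383% to 0.179%), with 3 without Npc1-/- P21 replicate 2 (0.0766%). The count was 0 of 5 tested without Npc1-/- P49 replicate 2 or 3 (0.0383%). There Mpeg1 fell below the filter and was not tested, while its P21 difference stayed at 4.15. Members called at P49 numbered 6 (1.52%), and 2 of 2 tested with the filter at the 60th percentile (1.26%). Partners called at P49 numbered 19 (1.52%), and 11 of 13 tested with that filter (1.26%). Without single arrays 15 to 20 were called (0.83% to 2.43%). At P21 they numbered 0 (0.0511%), and 1 without the trend (0.0638%) and 0 to 2 without single arrays (0.0383% to 0.179%). Homeostatic microglia genes called at P49 numbered 3 (1.52%), and 6 with no filter (1.14%) and 1 of 1 tested at the 60th percentile (1.26%). Same-numbered animals of different groups correlated above 0.1 in 6 of 18 pairs (from -0.17 to 0.19). No pairs with different numbers were set beside them, so whether the numbers mark a shared batch was not tested. With the replicate block the counts were 1 (members at P21), 6 (members at P49), 18 (partners at P49), 3 (homeostatic genes) and 0 (partners at P21), so it moved no count by more than 1.5 times. The shares in that setting were 0.0511% at P21 and 1.44% at P49.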
